A study of Mus musculus with 4 samples.

Results

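NADH:ubiquinone oxidoreductase (complex I) genes were examined in RNA-seq of mouse hearts at postnatal day 7 (P7). The members were the autosomal protein-coding genes of the deposited count table whose mouse symbol begins with Nduf, 44 of its 24454 genes. They comprised 7 nuclear-encoded core subunits, 10 accessory subunits of the matrix arm, 17 accessory subunits of the membrane arm, 8 assembly factors, and *Ndufa4* and *Ndufa4l2*, a pair that shares the name but is not counted among the subunits of the enzyme. Ctrl hearts (libraries WH7 and WH8) came from miR-128TetRE mice, which carry a miR-128 knock-in under a tetracycline-responsive promoter and lack its activator. miR-128OE hearts (libraries WH9 and WH10) came from α-MHC-tTA; miR-128TetRE mice, in which the α-MHC promoter places the activator tTA in cardiomyocytes, and the transgene is switched on once doxycycline is removed from the diet. All mice were kept on a C57BL/6 background. The tTA transgene is therefore present only in the miR-128OE hearts, and its part cannot be told apart from that of miR-128. The labels give neither the start of doxycycline withdrawal for these hearts nor whether a library holds 1 heart or several, so the 2 libraries of a condition are taken as separate samples. The p-values rest on the spread between such libraries, which the model estimates for each gene with the help of all tested genes.

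Complex I is the entry point of the respiratory chain, where electrons pass from NADH to ubiquinone while protons are pumped across the inner mitochondrial membrane. The core subunits of the matrix arm hold the flavin, the iron-sulfur clusters and the quinone site, whereas the proton-pumping core of the membrane arm is encoded by mitochondrial DNA. Accessory subunits surround and stabilize this core, and assembly factors help to build the enzyme without remaining in it. In the heart, complex I content is known to increase after birth as cardiomyocytes turn from glycolysis to the oxidation of fatty acids.

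The overexpressed microRNA and its candidate sites in the members are shown first, since the miRNA is the agent that defines the comparison. The mature sequence of miR-128-3p was taken from RefSeq, with the seed (bases 2 to 8) in capitals.
miR-128-3p: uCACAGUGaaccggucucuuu
A site was a stretch of a GENCODE M21 3′UTR that pairs with bases 2 to 8, or with bases 2 to 7 and carries an A opposite base 1. Where a gene had several 3′UTRs, only the one with the most bases was searched, so sites in its other 3′UTRs would be missed. Of the 43 members that could be tested, 5 (11.6%) held a site in the 3′UTR searched. The same was true of 4474 of 13465 tested genes (33.2%). The 3′UTRs searched were short in the members, with a median of 348 bases against 1375 bases for all tested genes. The sites of 4 members are given on the transcript strand in GRCm38, with the site in capitals.
Ndufs4 (chr13:114288719-114288747, minus strand): atctctgcttgACTGTGActgaagtgtca
Ndufaf2 (chr13:108003981-108004009, minus strand): tggcagtccgcCACTGTGgtggtttgaca
Ndufaf7 (chr17:78946751-78946780, plus strand): cagttagaggaCACTGTGAtcccatctggg
Ndufv1 (chr19:4008632-4008660, minus strand): aaccacccctgCACTGTGgaggaagagat
The 3′UTR searched was that of the principal transcript for *Ndufs4* and that of another isoform for the other 3. Whether the principal transcripts of those 3 also hold the site was not examined. The fifth member with a site was *Ndufa2*. None of these 5 members was lower in miR-128OE hearts, where their median log2 fold change was 0.31, as compared with 0.53 in the 38 tested members without a site. Over all tested genes with a 3′UTR, the medians were -0.027 with a site and 0.006 without. Neither difference was tested. *Ndufv1* and *Ndufs4* were higher, with log2 fold changes of 0.58 and 0.49, and *Ndufa2*, *Ndufaf2* and *Ndufaf7* did not pass the test.

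Library totals ranged from 8096870 to 14359838 counts, and 14266 genes had enough counts to be tested. Normalized counts are the counts scaled by TMM factors to a common library size. The transcripts of the miR-128 precursors were barely covered, with 0 counts for *Mir128-1* in each library and 0, 0, 2 and 10 counts for *Mir128-2* in WH7, WH8, WH9 and WH10, so these libraries give little check of the overexpression itself. Condition coincided with sex-linked expression: counts of *Xist* were 14543 and 11339 in Ctrl, as opposed to 94 and 132 in miR-128OE libraries, and those of *Ddx3y* were 13 and 7 against 1442 and 1768. The difference between conditions therefore cannot be told apart from one between sexes in any result that follows. In bulk hearts, fewer cells of a type and less RNA per cell cannot be told apart either.

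Most complex I genes were higher in miR-128OE hearts. Of the 43 tested members, 33 were higher by edgeR's quasi-likelihood test at an adjusted p below 0.05, as compared with 16.5% of all tested genes. None was lower (0 of 43), as compared with 2143 of all 14266 tested genes. That 0 also held at an unadjusted p below 0.05, where 3014 of all genes were lower, and by the DESeq2 test, where 1403 were. When WH9 was left out, 24 members were higher, beside 6.13% of all genes, and without WH10 there were 28, beside 8.65%. All 43 estimates were positive with TMM scaling, 42 were with upper-quartile factors or total counts (*Ndufaf8* turned negative) and without WH9 (*Ndufaf3* turned negative), and 39 were with an offset for GC content and length. The median log2 fold change was 0.50 (1.42-fold), whereas the median of all tested genes was -0.014. Both miR-128OE libraries lay above both Ctrl libraries for 39 members, against 33.7% of all genes (4811 of 14266). They lay below both for 0 members, against 4902 of all genes. Lack of overlap in one direction or the other was thus common to most tested genes. The members' share of all counts was 1.00% and 1.04% for WH7 and WH8, and it rose to 1.40% and 1.36% for WH9 and WH10. The changes were moderate, with 15 members above 1.5-fold, which 8.56% of all genes exceeded, and only *Ndufaf1* above 2-fold.

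**Figure D1:**
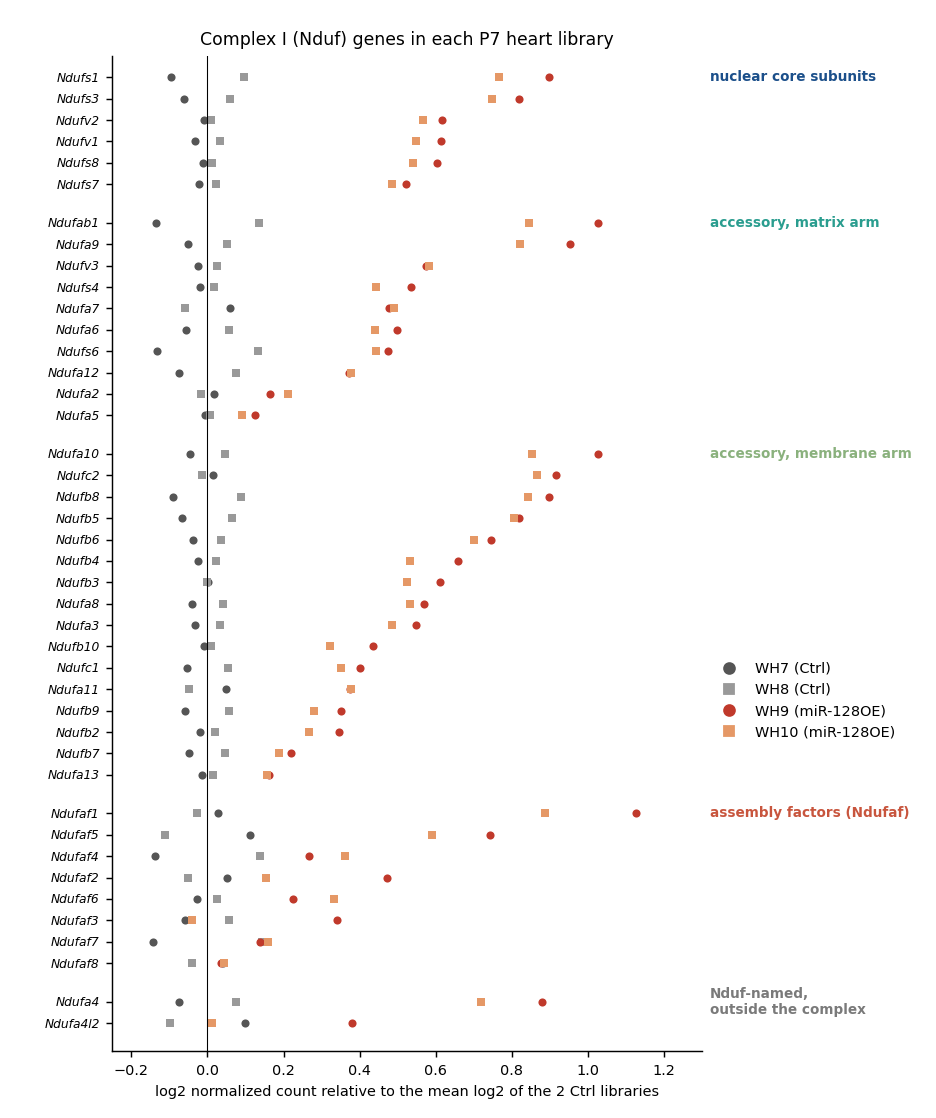
Each line is 1 of 42 tested members and each point 1 library, plotted as the log2 normalized count minus the mean log2 of both Ctrl libraries (grey, Ctrl; red and orange, miR-128OE), ordered by fold change within each role. The miR-128OE points lie to the right of both Ctrl points for 38 of these 42 members, and the 4 exceptions are Ndufaf8, Ndufaf7, Ndufaf3 and Ndufa4l2.

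The plot of single libraries shows that the libraries of a condition lay close together relative to the shift between conditions. Relative to the Ctrl mean, the median member stood at -0.029 and 0.029 on the log2 scale for WH7 and WH8 and at 0.53 and 0.49 for WH9 and WH10. WH9 was above WH10 for 34 of 43 members, and WH8 was above WH7 for 33 of 43, so members of a library tended to deviate together.

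All 7 nuclear core subunits were higher in miR-128OE hearts (against 16.5% of all tested genes), with log2 fold changes between 0.50 and 0.83 and a median of 0.59. These subunits form the electron path from NADH to the quinone site. *Ndufs1* (chr1:63143596-63176833, minus strand of GRCm38), the large iron-sulfur subunit, had 2018 and 2302 normalized counts in Ctrl, against 4019 and 3669.7 in miR-128OE hearts. Its change was the largest of the core (log2 fold change 0.83, SE 0.092, adjusted p = 0.000293). *Ndufs3* (chr2:90894634-90904827, minus strand), a subunit of the module that leads to the quinone site, had 2303 and 2504 in Ctrl and 4235 and 4034 in miR-128OE hearts (log2 fold change 0.78, SE 0.082, adjusted p = 0.000231). For both genes, the lower of the miR-128OE libraries was more than 1.5 times the higher Ctrl library.

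The flavoprotein and hydrophilic iron-sulfur subunits followed at a smaller change. *Ndufv1*, which binds the flavin and NADH, had 4587 and 4807 normalized counts in Ctrl, against 7189 and 6868 in miR-128OE hearts (log2 fold change 0.58, SE 0.084, adjusted p = 0.00106). Its partner *Ndufv2*, an iron-sulfur subunit, had 3910.3 and 3963 in Ctrl and 6033 and 5833 in miR-128OE hearts (log2 fold change 0.59, SE 0.080, adjusted p = 0.000794). *Ndufs8* and *Ndufs7* carry the last iron-sulfur clusters before ubiquinone. *Ndufs8* had 1779 and 1806 in Ctrl and 2722 and 2609 in miR-128OE hearts (log2 fold change 0.57, SE 0.077, adjusted p = 0.000741), and *Ndufs7* showed the smallest rise of the core, with 2358 and 2434 in Ctrl and 3443 and 3350.0 in miR-128OE hearts (log2 fold change 0.50, SE 0.076, adjusted p = 0.00137). Both miR-128OE libraries lay above both Ctrl libraries for each core subunit, against 33.7% of all tested genes. The 7 calls were kept under each of the 14 alternatives.

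Among the 10 accessory subunits of the matrix arm, 8 were higher (against 16.5% of all tested genes), with a median log2 fold change of 0.48. The acyl carrier protein *Ndufab1*, which also serves mitochondrial fatty acid synthesis and is counted here although it sits in both arms, had 1058 and 1276 normalized counts in Ctrl, against 2368 and 2086 in miR-128OE hearts (log2 fold change 0.94, SE 0.11, adjusted p = 0.000336). *Ndufa9* (chr6:126821721-126849136, minus strand), which binds NADPH near the quinone site, had 2474 and 2654 in Ctrl and 4963 and 4528 in miR-128OE hearts (log2 fold change 0.89, SE 0.086, adjusted p = 0.000156). These genes rose 1.91-fold and 1.85-fold, the largest changes of this arm. *Ndufv3*, a small subunit beside the flavoprotein, had 3491 and 3608 in Ctrl and 5282 and 5311 in miR-128OE hearts (log2 fold change 0.58, SE 0.079, adjusted p = 0.00082). The other 5 that passed were *Ndufs4*, *Ndufa7*, *Ndufa6*, *Ndufs6* and *Ndufa12*, with log2 fold changes from 0.49 down to 0.37. *Ndufs4* and *Ndufs6* are subunits in which human mutations are known to cause complex I deficiency.

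A pair of matrix-arm subunits did not pass the test, although their conditions did not overlap. *Ndufa5*, one of the more abundant subunits, had 5848 and 5896 normalized counts in Ctrl, against 6403 and 6248 in miR-128OE hearts (log2 fold change 0.11, SE 0.081, adjusted p = 0.343). *Ndufa2*, a small thioredoxin-fold subunit, had 3523 and 3436 in Ctrl and 3900.0 and 4028 in miR-128OE hearts (log2 fold change 0.19, SE 0.078, adjusted p = 0.0934). *Ndufa5* and *Ndufa9* belong to the same arm and were paired for their small and large estimates. As a description, the ratio of *Ndufa9* to *Ndufa5* counts was 0.423 and 0.450 in Ctrl and 0.775 and 0.725 in miR-128OE hearts. Such a ratio within a library does not depend on how libraries are scaled, and no test was run on it or on the other ratios given, whose pairs were also chosen with their fold changes known.

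Of 17 accessory subunits of the membrane arm in the table, 16 were tested. Of these, 14 were higher (against 16.5% of all tested genes), with a median log2 fold change of 0.53. *Ndufa10* (chr1:92439010-92473860, minus strand), a nucleoside kinase relative on the matrix face of the membrane arm, had 2176 and 2322 normalized counts in Ctrl, against 4575 and 4062 in miR-128OE hearts (log2 fold change 0.94, SE 0.089, adjusted p = 0.000135). *Ndufc2* (chr7:97400003-97407802, plus strand) had 1349 and 1320.1 in Ctrl and 2518 and 2433 in miR-128OE hearts (log2 fold change 0.89, SE 0.077, adjusted p = 9.09e-05). *Ndufb8* (chr19:44548572-44555440, minus strand) had 4283 and 4848 in Ctrl and 8482 and 8168 in miR-128OE hearts (log2 fold change 0.87, SE 0.092, adjusted p = 0.000241). These 3 subunits lay between 1.82-fold and 1.92-fold above Ctrl. *Ndufb5* had 2655 and 2909 in Ctrl and 4904 and 4854 in miR-128OE hearts (log2 fold change 0.81, SE 0.083, adjusted p = 0.000205). The next members were *Ndufb6* with a log2 fold change of 0.72, *Ndufb4* with 0.60 and *Ndufb3* with 0.57. *Ndufa8*, *Ndufa3*, *Ndufb10*, *Ndufc1*, *Ndufa11*, *Ndufb9* and *Ndufb2* were higher by 0.55 down to 0.31 on the log2 scale. *Ndufb2* was the smallest change of the membrane arm that passed, with 2254 and 2315 in Ctrl and 2902 and 2747 in miR-128OE hearts (log2 fold change 0.31, SE 0.078, adjusted p = 0.0154), and it did not pass without WH9 (adjusted p = 0.169) or without WH10 (adjusted p = 0.0716).

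*Ndufb7* and *Ndufa13* were the tested membrane-arm subunits that did not pass. *Ndufb7*, an intermembrane-space subunit with paired cysteines, had 4384 and 4682 normalized counts in Ctrl, against 5277 and 5158 in miR-128OE hearts (log2 fold change 0.20, SE 0.082, adjusted p = 0.088), and passed when WH8 was left out (adjusted p = 0.0211). *Ndufa13*, also known as GRIM-19, had 5839 and 5957 in Ctrl and 6601 and 6576 in miR-128OE hearts (log2 fold change 0.16, SE 0.081, adjusted p = 0.164). Conditions did not overlap for either gene, yet the gap was small beside the spread the model assigns. The ratio of *Ndufb8* to *Ndufb7* counts was 0.977 and 1.04 in Ctrl against 1.61 and 1.58 in miR-128OE hearts. Within the pair of small Ndufc subunits, the ratio of *Ndufc2* to *Ndufc1* was 0.457 and 0.415 against 0.621 and 0.622.

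The remaining membrane-arm subunit, *Ndufs5*, was listed at 0 in each of the 4 libraries. *Ndufs5-ps*, an annotated processed pseudogene on chromosome 16 that is not a member, matches the *Ndufs5* transcript at 99.4% over 319 bases, and its counts were 27 and 30 in Ctrl, against 421 and 419 in miR-128OE hearts (log2 fold change 3.58, SE 0.22, adjusted p = 1.50e-05). The pseudogene was looked at after its values were seen. How the authors counted reads that fit both genes is not given in the sources used here, and whether the pseudogene's counts hold reads of *Ndufs5* was not tested.

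**Figure D2:**
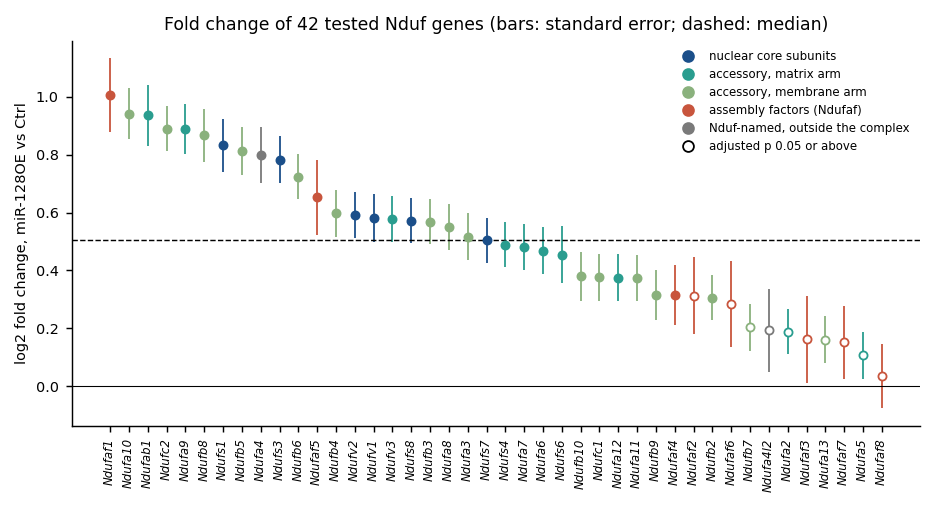
Each point is the log2 fold change of 1 of 42 tested members (miR-128OE against Ctrl, edgeR), the bar is its standard error, the colour its role, and open points did not pass an adjusted p of 0.05. Values run from 1.01 for Ndufaf1 to 0.035 for Ndufaf8 around the median of all tested members, 0.50 (dashed line), and 5 of the 10 open points are assembly factors.

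Of the 8 assembly factors, 3 were higher (against 16.5% of all tested genes), and the median log2 fold change of the 8 was 0.30. They were also the least abundant role, with a median of 15.8 RPKM in Ctrl, and their standard errors were wider. *Ndufaf1* (chr2:119655446-119662827, minus strand), a chaperone of the early membrane-arm intermediate, had the largest change of all members, with 211 and 204 normalized counts in Ctrl, against 452 and 384 in miR-128OE hearts (log2 fold change 1.01, SE 0.13, adjusted p = 0.000579). *Ndufaf5*, which hydroxylates an arginine of NDUFS7, had 236 and 202 in Ctrl and 365 and 329 in miR-128OE hearts (log2 fold change 0.65, SE 0.13, adjusted p = 0.00537), and did not pass without WH9 (adjusted p = 0.0663). *Ndufaf4*, which acts with *Ndufaf3*, had 737 and 892 in Ctrl and 975 and 1041 in miR-128OE hearts (log2 fold change 0.31, SE 0.10, adjusted p = 0.0439), and its call was kept under 8 of 14 alternatives and under 1 of the 4 that left out a library. Both miR-128OE libraries exceeded both Ctrl libraries for each of these 3 factors, as they did for 33.7% of all tested genes.

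The other 5 assembly factors did not pass with the default filter. *Ndufaf2*, a relative of *Ndufa12* that leaves the complex at the end of assembly, had 315 and 293 normalized counts in Ctrl, against 421 and 337 in miR-128OE hearts (log2 fold change 0.31, SE 0.13, adjusted p = 0.103), and it passed with no filter on low counts (adjusted p = 0.046). *Ndufaf6* had 139 and 144 in Ctrl and 165 and 178 in miR-128OE hearts (log2 fold change 0.28, SE 0.15, adjusted p = 0.178). For both of these the conditions did not overlap, and neither gap exceeded the spread enough to pass. *Ndufaf3* had 239 and 259 in Ctrl and 315 and 241 in miR-128OE hearts (log2 fold change 0.16, SE 0.15, adjusted p = 0.447). *Ndufaf7*, a methyltransferase, had 292 and 356 in Ctrl and 354 and 360.0 in miR-128OE hearts (log2 fold change 0.15, SE 0.13, adjusted p = 0.388). In these last 2 genes a miR-128OE library fell below a Ctrl library. *Ndufaf8*, a partner of *Ndufaf5*, had 320.1 and 302 in Ctrl and 319 and 320.5 in miR-128OE hearts (log2 fold change 0.035, SE 0.11, adjusted p = 0.837), and both miR-128OE libraries lay close to WH7. The ratio of *Ndufaf1* to *Ndufaf8* counts was 0.660 and 0.673 in Ctrl and 1.42 and 1.20 in miR-128OE hearts.

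*Ndufa4* and its paralog *Ndufa4l2* lie outside the enzyme as now defined. *Ndufa4*, which is counted as a subunit of cytochrome c oxidase, had 6557 and 7265 normalized counts in Ctrl, against 12687 and 11365 in miR-128OE hearts (log2 fold change 0.80, SE 0.097, adjusted p = 0.000463). *Ndufa4l2*, known as a hypoxia-induced gene, had 350.2 and 305 in Ctrl and 426 and 329.7 in miR-128OE hearts (log2 fold change 0.19, SE 0.14, adjusted p = 0.335), and WH10 lay below WH7. The ratio of *Ndufa4* to *Ndufa4l2* counts was 18.7 and 23.8 in Ctrl and 29.8 and 34.5 in miR-128OE hearts.

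Levels were compared between genes per kilobase of the principal transcript (RPKM). In Ctrl hearts, the median was 197 RPKM for the core, 262 for the accessory subunits of the matrix arm, 274 for those of the membrane arm and 15.8 for the assembly factors. *Ndufa4* was highest at 962 ± 69.7 RPKM (SD, n = 2), followed by *Ndufb9* at 868 ± 49.4 and *Ndufa3* at 718 ± 23.1. *Ndufaf6* was lowest of the tested members at 11.1 ± 0.286 RPKM, next to *Ndufaf1* at 12.1 ± 0.320. In miR-128OE hearts the level of *Ndufa4* was 1675 ± 130.2 RPKM and that of *Ndufaf1* 24.5 ± 2.85. Among subunits, *Ndufab1* (28.5 ± 3.77) and *Ndufb2* (44.4 ± 0.836) stood lowest in Ctrl, and their principal transcripts carry 3′UTRs of 2944 and 4012 bases, which lowers a value per length where such an end is not transcribed.

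**Figure D3:**
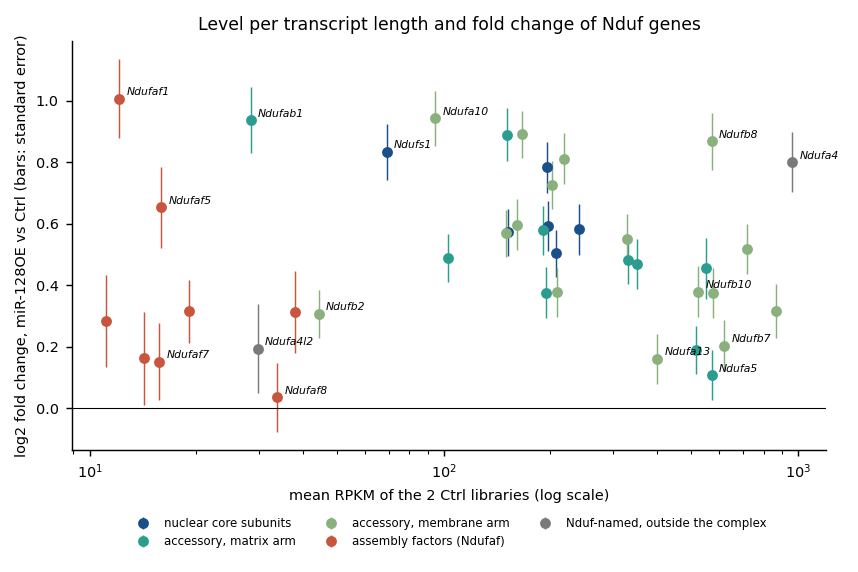
Mean RPKM of both Ctrl libraries (horizontal axis, log scale) is plotted against the log2 fold change with its standard error (vertical axis) for 42 tested members, coloured by role. Assembly factors lie at the left between 11.1 and 38.0 RPKM, and Ndufa5 and Ndufb8 share a level near 570.1 RPKM but lie at 0.11 and 0.87.

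Over the 33 tested subunits, the log2 fold change was correlated with the log2 RPKM in Ctrl at a Pearson's r of -0.51 (Spearman's rho -0.54), and with the log2 RPKM in miR-128OE hearts at -0.34 (rho -0.39). Over all 43 tested members the correlation with the Ctrl level was 0.043 (rho -0.037), and over all tested genes it was 0.10 (rho 0.17). These are descriptions across genes of the same 4 libraries, genes are not independent replicates, and the Ctrl level enters both axes of the first. The fold change was correlated at 0.31 (rho 0.35) with transcript length and at -0.30 (rho -0.30) with GC content, and over all tested genes these values were -0.12 (rho -0.16) and 0.041 (rho 0.047). With an offset for GC content and length, the median change of the members was 0.35. Under it, 27 members were higher, beside 15.9% of all tested genes, and 39 were positive. The order of the members hardly moved (rho 0.96 against the fit without the offset, n = 43). The calls of *Ndufa11*, *Ndufa12*, *Ndufa6*, *Ndufb10*, *Ndufb9* and *Ndufs6* were lost under that offset, and the estimates of *Ndufa2*, *Ndufa5*, *Ndufb7* and *Ndufaf8* turned negative.

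The rest of the complex was described from lists of its other genes. The X-linked subunits *Ndufa1* and *Ndufb11* were both higher. *Ndufa1* had 3318 and 3351 normalized counts in Ctrl, against 4823 and 4724 in miR-128OE hearts (log2 fold change 0.52, SE 0.078, adjusted p = 0.00129), and *Ndufb11* had 4132 and 4529.8 in Ctrl and 5670.2 and 5382 in miR-128OE hearts (log2 fold change 0.35, SE 0.086, adjusted p = 0.0134). These values lay within the range of the autosomal membrane-arm subunits. The mitochondrially encoded core subunits and Ndufb1 were not analysed here.

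Of 14 tested assembly factors outside the Nduf name, 6 were higher and 1 was lower, beside 2347 higher and 2143 lower of all 14266 tested genes. The protein import and stability factor *Aifm1*, also X-linked, had 454 and 437 normalized counts in Ctrl, against 815 and 727 in miR-128OE hearts (log2 fold change 0.79, SE 0.098, adjusted p = 0.000505). *Oxa1l*, an insertase of the inner membrane, had 889 and 1054 in Ctrl and 1379 and 1289 in miR-128OE hearts (log2 fold change 0.46, SE 0.099, adjusted p = 0.00733). *Tmem70*, *Dmac1*, *Tmem126a* and *Ecsit*, which act in assembly of the membrane arm, were higher by 0.42, 0.36, 0.35 and 0.28 on the log2 scale. *Acad9*, an acyl-CoA dehydrogenase relative that acts with *Ndufaf1* and *Ecsit*, went the other way, with 891 and 873 in Ctrl and 529 and 564 in miR-128OE hearts (log2 fold change -0.69, SE 0.087, adjusted p = 0.000534). *Ndufaf1* and *Acad9*, partners in the same assembly complex, thus moved in opposite directions. Conditions did not overlap for either gene, which also held for most tested genes in one direction or the other. The other 7 factors did not pass. *Nubpl*, which delivers iron-sulfur clusters, had the largest estimate of these, with 42.1 and 49.5 in Ctrl and 76.2 and 71.5 in miR-128OE hearts (log2 fold change 0.70, SE 0.24, adjusted p = 0.0532). The rest lay between -0.095 (*Tmem126b*) and 0.36 (*Tmem186*) on the log2 scale.

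Other genes of mitochondrial energy metabolism were also higher, read beside 2347 higher and 2143 lower of all 14266 tested genes. Complexes II to V had 45 tested autosomal subunit genes, of which 43 rose and 0 fell, also at an unadjusted p below 0.05, with a median log2 fold change of 0.67. Mitochondrial ribosomal proteins had 78 tested genes, of which 49 rose and 2 fell (median 0.35). The median of the complex I members, 0.50, lay between these values, and the difference between lists was not tested.

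**Figure D4:**
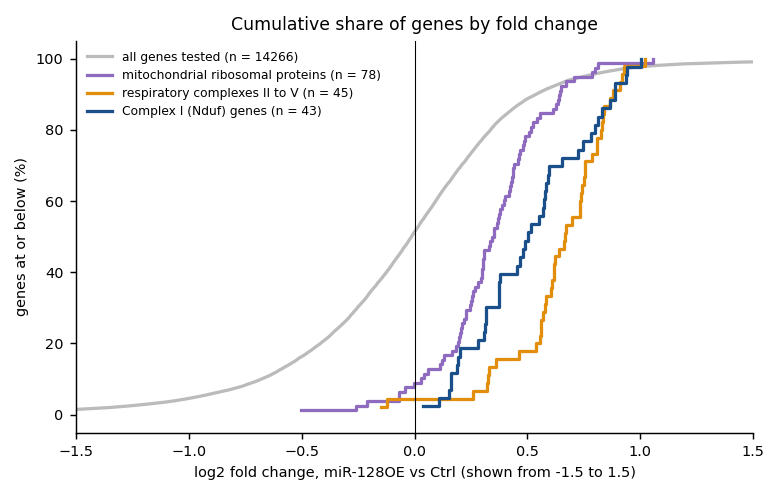
The cumulative share of genes (vertical axis, %) is plotted against the log2 fold change (horizontal axis, shown from -1.5 to 1.5) for the 43 complex I members, 45 genes of complexes II to V, 78 mitochondrial ribosomal protein genes and all 14266 tested genes. The members run from 0.035 (Ndufaf8, which turns negative with upper-quartile factors, total counts or the offset for GC content and length) to 1.01, with a median of 0.50, between the mitochondrial ribosome at 0.35 and complexes II to V at 0.67.

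Transcription factors and coactivators known to act on respiratory genes were counted as a list of 12, of which 4 were higher and 1 was lower. Among all 14266 tested genes, 2347 were higher and 2143 lower. The coactivator *Ppargc1a* had 1162 and 1427 normalized counts in Ctrl, against 1867 and 1636 in miR-128OE hearts (log2 fold change 0.44, SE 0.11, adjusted p = 0.0149), whereas its relative *Ppargc1b* had 1087 and 1204 in Ctrl and 842 and 895 in miR-128OE hearts (log2 fold change -0.40, SE 0.088, adjusted p = 0.00871). *Esrrb*, an estrogen-related receptor of low level, had 40.2 and 60.8 in Ctrl and 235 and 186 in miR-128OE hearts (log2 fold change 2.09, SE 0.23, adjusted p = 0.00028). *Ppara* and *Gabpa* were higher by 0.40 and 0.29 on the log2 scale. The other 7 did not pass. The largest log2 fold changes among them were 0.36 for *Esrrg* (SE 0.17, adjusted p = 0.140) and 0.19 for *Pprc1* (SE 0.10, adjusted p = 0.181). *Yy1* had a log2 fold change of 0.10 (SE 0.094, adjusted p = 0.429), *Nrf1* of 0.094 (SE 0.13, adjusted p = 0.616) and *Tfam* of 0.028 (SE 0.093, adjusted p = 0.846). *Gabpb1* stood at -0.042 (SE 0.12, adjusted p = 0.827) and *Esrra* at -0.055 (SE 0.094, adjusted p = 0.688).

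Promoters were read because the members moved together and these factors have known recognition letters. RefSeq promoter windows (GRCm38.p6, 250 bases before to 50 after the start) were matched for 38 of the 44 members and searched on both strands. The NRF1 letters CGCATGCG were found in 4 members (10.5%), as compared with 4.01% of tested genes and 2.07% of all genes. The YY1 letters AAGATGGCG were in 6 members (15.8%), against 3.25% and 1.64%. The ETS letters CCGGAAG, which GABPA reads, were in 6 members (15.8%), against 18.6% and 9.93%, and the estrogen-related receptor letters TCAAGGTCA were in 0 of 38, against 0.302% and 0.466%. The ETS letters end in the AAG that opens the YY1 letters, so these motifs can overlap, and *Ndufaf8* alone held both. The windows with YY1 letters are shown with the match in capitals, since they all lie downstream of the start.
Ndufa9 (chr6:126849097-126849125, minus strand): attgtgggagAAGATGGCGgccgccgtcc
Ndufaf8 (chr11:120098934-120098962, plus strand): ggcagggcccAAGATGGCGgcgccctcga
Ndufc1 (chr3:51408915-51408943, minus strand): cctgcggaacAAGATGGCGccgtccgtag
Ndufs4 (chr13:114388045-114388069, minus strand): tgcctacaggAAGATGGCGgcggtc
Ndufs6 (chr13:73328433-73328459, minus strand): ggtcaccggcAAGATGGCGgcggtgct
Ndufs7 (chr10:80249463-80249491, plus strand): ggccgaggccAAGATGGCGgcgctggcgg
In all 6 members the match was on the sense strand and began 11 to 36 bases from the start, counting the start as 1. Among all genes with these letters, 206 of 443 (46.5%) had them on the sense strand downstream of the start. In 5 of the 6 members the ATG inside the letters was the annotated start codon, the exception being *Ndufaf8*. The NRF1 windows are shown in the same way.
Ndufa11 (chr17:56717693-56717720, plus strand): ctgcactgcgCGCATGCGcgcacgcctt
Ndufa8 (chr2:36049330-36049357, minus strand): tcgctggagaCGCATGCGcagatggtac
Ndufaf4 (chr4:24897961-24897988, plus strand): cagatgtctgCGCATGCGcctgtgcgga
Ndufaf5 (chr2:140170653-140170680, plus strand): gtcccgttggCGCATGCGcctaatagaa
The median log2 fold change was 0.46 for tested members with NRF1 letters and 0.47 for those with YY1 letters, and 0.52 and 0.57 for members whose promoter lacked them. These are matches of letters in a fixed window, and no test was run on them.

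Cardiomyocyte markers were abundant in all 4 libraries, with summed normalized counts of 522978 and 562905 in Ctrl and 629563 and 620524 in miR-128OE hearts, and did not move as one. Of 8 markers, *Actn2*, *Pln* and *Myh6* were higher by 0.76, 0.59 and 0.33 on the log2 scale, *Ryr2* and *Ttn* were lower at -0.40 and -0.34, and *Tnnt2*, *Tnni3* and *Myl2* did not pass. The atrial markers differed within Ctrl, where *Nppa* had 34013 counts in WH7 and 1943 in WH8, and 0 of 4 passed. Fat markers moved with the members at low level, since 3 of 4 were higher and their summed normalized counts were 389.6 and 391 in Ctrl and 839.6 and 638 in miR-128OE hearts. Among them, counts of *Ucp1* were 56 and 3 in Ctrl but 253 and 189 in miR-128OE hearts. The erythroid gene *Alas2* was higher (log2 fold change 1.05, SE 0.15, adjusted p = 0.00106), while *Hba-a1*, *Hbb-bs* and *Hbb-bt* were listed at 0. Of the other lists, 0 of 6 fibroblast and 0 of 4 macrophage markers passed, 2 of 5 endothelial markers were higher and 1 lower, and 2 of 4 of smooth muscle and pericytes were higher and 1 lower. These marker counts stand beside 2347 higher and 2143 lower of all 14266 tested genes. The part of cell makeup in the members' changes was not tested.

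Some members share sequence with other genes. Overlap of exons with another annotated gene was found for 18 of the 44 members, and over more than 100 bases for 10. The largest were 1955 bases between *Ndufaf2* and B230220B15Rik and 616 bases between *Ndufb5* and *Mrpl47*, both on opposite strands. *Mrpl47*, a mitochondrial ribosomal protein gene, was itself higher by 0.67 on the log2 scale. Matches to processed or other pseudogenes with at least 95% identity over 100 or more bases were found for 8 members, among them *Ndufs3* (98.6% over 792 bases), *Ndufab1* (99.8% over 468 bases) and *Ndufb4* (100% over 390 bases). For *Ndufaf7* the match was only to *Zkscan7*, over 124 bases. Short stretches of *Ndufaf7* also matched many other genes, such as *Malat1* (95.2% over 146 bases), so its match is not taken as a copy. Whether the authors' counting used strand or kept reads with several matches is not given in the sources used here, so the values of these members are uncertain to that extent.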

How the data were processed

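RNA-seq of P7 hearts was analyzed, with 2 Ctrl and 2 miR-128OE libraries. The values are raw counts per gene, used as the authors deposited them. They come from quality-filtered reads, with TopHat2 as aligner, mm10 as genome and Bioconductor software for counting. The gene models, the use of strand and the treatment of reads with several matches are not given in the sources used here. Library totals were between 8096870 and 14359838 counts. Of the 24454 Entrez Gene identifiers, 24374 were matched in the RefSeq gene table of GRCm38.p6 and 6 more through GENCODE M21.

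The counts were tested with edgeR 4.0.16 in R 4.3.3 (filterByExpr defaults, TMM factors, quasi-likelihood test), with Benjamini-Hochberg adjustment over 14266 genes and a threshold of 0.05. The standard error (SE) of a log2 fold change was taken as its size over the root of F. RPKM values were computed from the counts and the length of the principal GENCODE transcript. On simulated counts for 14266 genes with 200 changed, the test of miR-128OE against Ctrl found 84% of genes with a simulated log2 change of 1 and 94% of those with 2, and 5.82% of its calls were false. Smaller changes, such as the members' median of 0.50, were not simulated. Far fewer genes were changed than the 2347 higher and 2143 lower in the data, so these rates do not carry over to the members. Replicates differed by more than counting noise, so no library was counted as a duplicate.

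The members and all gene lists were chosen with earlier results of these data known, so no p-value is given for a list. Named members were the core subunits, the assembly factors, *Ndufa4* and *Ndufa4l2*, the 5 other members with the largest and the 5 with the smallest log2 fold change, the 3 of each accessory group with the smallest p-value, and each member that did not pass or whose conditions overlapped. Some genes under this rule are counted in the groups but not reported singly here. Other members are given by range, as single fold changes or because a further result touched them, the latter chosen after their values were seen. Sites, motifs and copies were searched with Python 3.11.15 and BLAST in GENCODE M21 and RefSeq sequences. As alternatives, the DESeq2 1.42.0, exact and likelihood ratio tests were run, with RLE, upper-quartile and total-count scaling, other filters, a loess offset for GC content and length (span 0.5), autosomal genes alone, and each library left out. RNA-seq at other ages was not analysed here.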

Additional observations from a re-analysis of the deposited data

How the results depend on the processing

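Of the 33 members that were higher, 23 were higher under all 14 alternatives, and 0 members were lower under any of them. No paired analysis was possible because the labels give the libraries of the conditions no shared replicate numbers. Scaling moved the level of all genes together: over all genes the median change (log2) was -0.014 with TMM factors, -0.06 with upper-quartile factors and -0.11 with total counts, the share of higher genes among all calls was 52.3%, 44.2% and 35.3%, and the median of the members was 0.50, 0.46 and 0.40, so that members and all genes differed by 0.52 each time. With the offset for GC content and length, the median of the members was 0.35. The number of members that were higher was 33, against 32 by DESeq2, 30 with total counts and 27 with that offset. Over all genes, 2143 were lower, against 1403 by DESeq2. *Ndufaf8* was -0.011 with upper-quartile factors, -0.065 with total counts and -0.16 with the offset, where *Ndufa2* was -0.051, *Ndufb7* -0.027 and *Ndufa5* -0.078. *Ndufaf3* ranged from -0.026 without miR-128OE replicate 1 (WH9) to 0.36 without replicate 2. The cause of these changes of sign was not tested.

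When each library was left out in turn, the lone remaining library of its condition was assumed to vary like the others. The number of members that were higher ranged from 24 to 34 and their median from 0.48 to 0.55, while the number of all genes that were higher ranged from 897 to 2654 and of those lower from 667 to 2384. The lowest counts came without miR-128OE replicate 1, and 1265 and 1020 were called without miR-128OE replicate 2. With 2 libraries per condition and coinciding sex-linked expression, the members' changes are a comparison of these 4 libraries. Members with few counts, such as *Ndufaf6* with 102 to 212, had wider standard errors.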
